A study of Mus musculus with 20 samples.

Results

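Established epiblast stem cells were compared with the naive embryonic stem cells from which they had been derived, by small RNA sequencing in 2 mouse lines. The comparison took every library sampled at days 27 to 30 of the conversion, called late here, and every library sampled at day 0, which made 8 of the 20 libraries of the series with 4 a side. Late libraries came from PGK cells at day 29 in both experiments and from E14 cells at days 27 and 30, all grown on fibronectin in N2B27 with Activin A and Fgf2. Day 0 libraries came from the same lines in 2i medium. PGK is a female line and E14 a male one, so sex and line cannot be told apart, and no mutation or transgene is named in the labels. Each line went through 2 differentiation experiments, diff2 and diff3, called replicates 2 and 3 here. Each p-value of the fit with both lines rests on the spread between these experiments and on how far the change differed between the lines. In both lines the day 0 library of replicate 3 carries the cell-type label ESCs-EpiSCs although its day label is day 0, so results were also computed without these 2 libraries. In such bulk samples fewer cells that make a miRNA and less of it per cell cannot be told apart.

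A microRNA (miRNA) guides Argonaute proteins to messenger RNAs, and its seed, bases 2 to 8 from its 5′ end, sets most of its choice of targets. It is cut from a hairpin that can release a 5p and a 3p arm. Naive cells in 2i are held by inhibitors of Mek and Gsk3 and resemble the epiblast before implantation, while epiblast stem cells are the primed state, depend on Activin and Fgf signalling and resemble the epiblast after implantation. The miR-290 cluster is the main miRNA cluster of mouse embryonic stem cells, the miR-302 and miR-367 cluster is typical of the epiblast after implantation, and let-7 miRNAs accumulate in differentiated cells and are held back at the precursor step by Lin28 proteins.

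The results turned on a few seeds, shown here in capitals within mature sequences from RefSeq (GRCm38.p6). The first is shared by arms of the miR-290 and miR-302 clusters, whose levels moved in opposite directions, and miR-295-3p lies at chr7:3220815-3220837 and miR-302b-3p at chr3:127545275-127545297, both intergenic and on the plus strand.
miR-295-3p: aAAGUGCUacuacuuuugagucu
miR-294-3p: aAAGUGCUucccuuuugugugu
miR-302b-3p: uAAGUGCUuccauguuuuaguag
miR-302d-3p: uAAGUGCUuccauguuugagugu
The let-7 seed is shown for 2 members that differ in how they changed, let-7f-5p (1 of 2 loci at chr13:48537889-48537910, minus strand, an exon of 6720427I07Rik) and let-7c-5p (1 of 2 loci at chr15:85706616-85706637, plus strand, an exon of Lncppara).
let-7f-5p: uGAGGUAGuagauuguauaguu
let-7c-5p: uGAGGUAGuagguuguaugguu
The next pair, miR-211-5p (chr7:64205831-64205852, plus strand, an intron of Trpm1) and miR-204-5p (chr19:22750610-22750631, plus strand, an intron of Trpm3), is shown because both carry 1 seed and lie in related genes, and only miR-211-5p passed the test.
miR-211-5p: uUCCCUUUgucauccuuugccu
miR-204-5p: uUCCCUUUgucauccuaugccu
The seeds of the miR-99/100 and miR-125 families are shown because both families rose, with miR-99b-5p at chr17:17830194-17830215 (plus strand, an intron of Spaca6) and miR-125a-5p at chr17:17830817-17830840 (plus strand, an exon of Spaca6).
miR-99b-5p: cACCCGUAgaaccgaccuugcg
miR-100-5p: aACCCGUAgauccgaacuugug
miR-125a-5p: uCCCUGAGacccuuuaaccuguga
miR-125b-5p: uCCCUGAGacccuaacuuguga

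Libraries held 8257538 to 9985494 miRNA counts in late cells and 10824825 to 15601218 at day 0. Late libraries detected 889 to 915 miRNAs and day 0 libraries 863 to 877. The 10 most abundant miRNAs took 44.7 to 49.3% of late and 47.6 to 53.8% of day 0 counts, and 6 of the 10 were the same at both stages. The tables of both lines shared 1063 miRNAs, of which 712 passed the filter on low counts and held 99.9% of the counts. The limit that a count of 0 allows, 3 counts, equals 0.3 to 0.363 CPM by library total in late libraries and 0.192 to 0.277 CPM in day 0 libraries, and covers counting error only. Levels below are CPM, each count scaled to its library's total and TMM factor, and changes are log2 of late over day 0 ± SE, from edgeR's quasi-likelihood test with Benjamini-Hochberg adjustment over all 712 miRNAs and line as a term.

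About as many miRNAs rose as fell. In late cells 180 miRNAs were higher (25.3% of those tested) and 188 lower (26.4%), together 51.7%, at an adjusted p under 0.05. Counts of arms called in a family or list below are to be read beside these shares. All 4 late libraries lay above all 4 day 0 libraries for 174 miRNAs (24.4%) and below them for 176 (24.7%). This split depends on the scaling. TMM factors were 1.08 to 1.31 in late and 0.772 to 0.874 in day 0 libraries. With library totals alone every change moved up by about 0.553 on the log2 scale, with 275 miRNAs higher (38.6%) and 128 lower (18%). Changes are therefore given relative to the typical miRNA, whose median log2 change was 0.05. A first principal component with 74.6% of the variance separated the stages, and late libraries scored 27.4 to 29.8 on it and day 0 libraries -39.4 to -13.3.

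**Figure D1:**
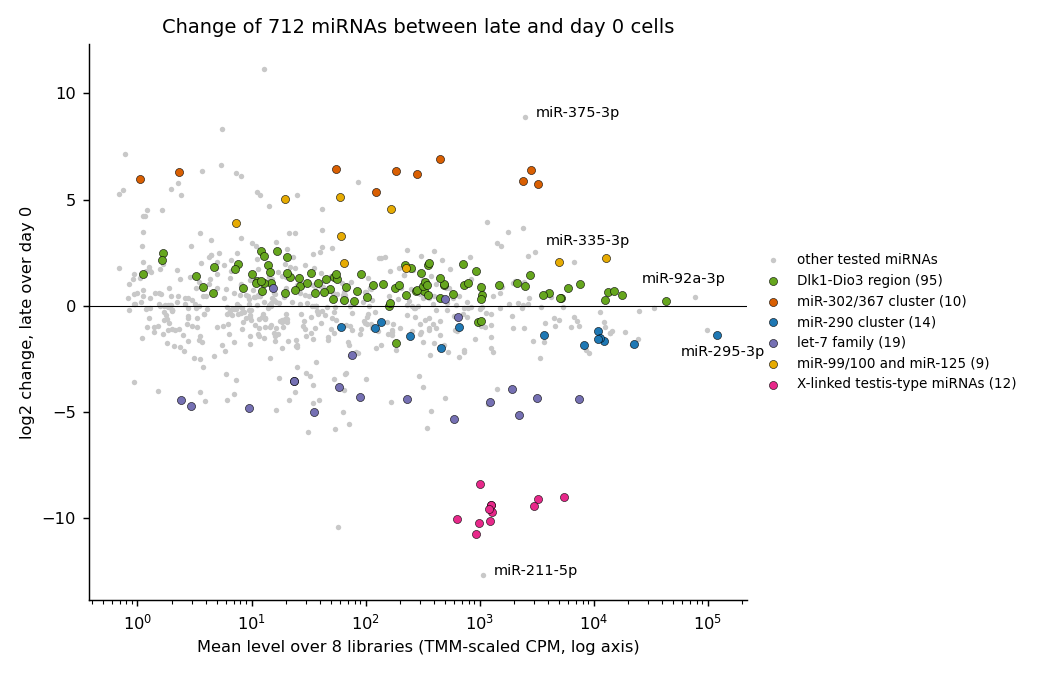
The log2 change of late over day 0 (vertical axis) is plotted against the mean level over the 8 libraries in TMM-scaled CPM (horizontal log axis) for 712 miRNAs, 1 point each, with 6 groups in colour and their number of tested members in the legend. The miR-302 and miR-367 points lie together near the top, the X-linked testis-type points at the bottom, and the miR-290 points sit below 0 at the right.

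The marker clusters of naive and primed cells moved in opposite directions. All 10 measured arms of the miR-302 and miR-367 cluster rose, with a median log2 change of 6.26 beside 0.05 over all miRNAs. Its most abundant arm in late cells was miR-302d-3p, which stood at 5852 and 4049 CPM in late PGK and 9229 and 6314 CPM in late E14 libraries, against 66.4 and 75.8 CPM in PGK and 136 and 246 CPM in E14 day 0 libraries. miR-302d-3p changed by 5.73 ± 0.38 on the log2 scale (adjusted p = 1.57e-05). The groups did not overlap, and the highest day 0 level was in E14 replicate 3, 1 of the libraries labelled ESCs-EpiSCs. That library also held the highest day 0 level of miR-302b-3p, 180.3 CPM against 45.9 to 57.6 CPM in the other 3, beside 3283 to 6497 CPM in late cells. The 5p arms and miR-367-3p, which carries the seed of miR-92a-3p, rose as well, miR-302a-5p to 648 to 1261 CPM in late cells against 3.63 to 17 CPM at day 0 (log2 change 6.89 ± 0.62, adjusted p = 4.14e-05), and miR-367-3p by 6.23. Of the counts with its seed AUUGCAC miR-367-3p made up 0.328 to 0.704% in late and 0.00384 to 0.0136% in day 0 libraries. In all, the cluster took 1.42 to 3.53% of all counts in late and 0.0141 to 0.052% in day 0 libraries.

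The miR-290 cluster fell but stayed abundant. Of its 14 arms 13 were lower and 0 higher in late cells, with a median log2 change of -1.40, and with library totals alone 8 were lower. It took 11.6 to 14.7% of all counts in late and 19.9 to 29% in day 0 libraries. The leading arm, miR-295-3p, stood at 69419.6 and 69202 CPM in late PGK and 71695 and 59945 CPM in late E14 libraries, against 150379 and 198771 CPM in PGK and 157731 and 194442 CPM in E14 day 0 libraries. miR-295-3p changed by -1.38 ± 0.15 on the log2 scale (adjusted p = 0.000103). Every late library was below every day 0 library, and late cells kept miR-295-3p as their second most abundant miRNA after miR-92a-3p. Other 3p arms with the same seed also fell, miR-294-3p by 1.84 and miR-291a-3p by 1.38 on the log2 scale. Among 5p arms, miR-292-5p was 8294 to 11452 CPM in late and 28291 to 39257 CPM in day 0 libraries (log2 change -1.83 ± 0.18, adjusted p = 6.00e-05) and miR-291a-5p fell by 1.68 on the log2 scale.

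Counts summed by seed show the 2 clusters together, since their arms share seeds. The group with the seed AAGUGCU, in which miR-302a-3p was not counted, stood at 85163 and 83062 CPM in late PGK and 93292 and 75203 CPM in late E14 libraries, against 168600.0 and 224929 CPM in PGK and 168133 and 213874 CPM in E14 day 0 libraries. The sum fell (log2 change -1.20 ± 0.16, adjusted p = 0.000393, adjusted over 461 seed groups). Within it miR-302b-3p and miR-302d-3p made up 8.83 to 16.9% in late and 0.0593 to 0.199% in day 0 libraries, and miR-295-3p 76.8 to 83.3% in late and 88.4 to 93.8% in day 0 libraries. The seed was thus still carried mostly by miR-295-3p in late cells. By this sum 138 seed groups were higher (29.9%) and 111 lower (24.1%), together 54%.

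The counts that carry the let-7 seed fell in both lines, and the miRNAs that made them up differed between the stages. The group GAGGUAG stood at 2319 and 2821 CPM in late PGK and 1450.2 and 2563 CPM in late E14 libraries, against 41782 and 49807 CPM in PGK and 22224 and 19446 CPM in E14 day 0 libraries. This was a fall (log2 change -3.77 ± 0.29, adjusted p = 8.43e-05). Of the 23 listed names of the family 19 were tested, of which 15 fell and 0 rose, with a median log2 change of -4.38. When PGK late replicate 2, E14 late replicate 2 or any 1 of the 4 day 0 libraries was left out 1 arm was higher, and with library totals 2 were. The most abundant, let-7f-5p, stood at 589 and 735 CPM in late PGK and 390.5 and 622 CPM in late E14 libraries, against 18883 and 23498 CPM in PGK and 6981 and 7582 CPM in E14 day 0 libraries. let-7f-5p changed by -4.42 ± 0.35 on the log2 scale (adjusted p = 3.47e-05). Day 0 levels of let-7f-5p in PGK were above those in E14, and all late levels lay below both. Lower by more than let-7f-5p were let-7d-5p (-4.55), let-7g-5p (79.2 to 155 CPM in late and 3690.3 to 5343 CPM in day 0 libraries, log2 change -5.15 ± 0.33, adjusted p = 1.57e-05) and miR-98-5p (13.2 to 35.7 CPM in late and 392 to 1701 CPM in day 0 libraries, log2 change -5.36 ± 0.45, adjusted p = 3.64e-05), while let-7i-5p changed by -4.38 and let-7a-5p by -3.91. The tables list let-7a-1-3p and let-7c-2-3p with the same counts in all 8 libraries, so these 2 of the 15 are 1 measurement.

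The 5p arms of let-7e and let-7c were not called with both lines. The level of let-7e-5p, which shares a cluster in Spaca6 with miR-99b and miR-125a, was 459 to 709 CPM in late and 308 to 612 CPM in day 0 libraries and did not pass the test (log2 change 0.32 ± 0.28, adjusted p = 0.372). The interval of 2 SE was -0.25 to 0.88. Its share of the let-7 seed was 20.2 to 31.7% in late and 1.23 to 1.59% in day 0 libraries. With library totals alone let-7e-5p was called higher (0.88, adjusted p = 0.0325). For let-7c-5p, with 1 of its loci on chromosome 16 near those of miR-99a and miR-125b, the level was 396 and 387 CPM in late PGK and 201 and 584 CPM in late E14 libraries, against 1656 and 1495 CPM in PGK and 172 and 233 CPM in E14 day 0 libraries. let-7c-5p changed by -0.53 ± 0.68 on the log2 scale (adjusted p = 0.541). In PGK alone let-7c-5p fell by 1.99 on the log2 scale (adjusted p = 0.00264), and in E14 alone its change was 1.02 and did not pass (adjusted p = 0.272). DESeq2 called this difference between the lines (-3.10, adjusted p = 0.00383), and edgeR did not (-2.96 ± 0.73, adjusted p = 0.158). Its share of the seed was 13.7 to 22.8% in late and 0.774 to 3.96% in day 0 libraries.

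**Figure D2:**
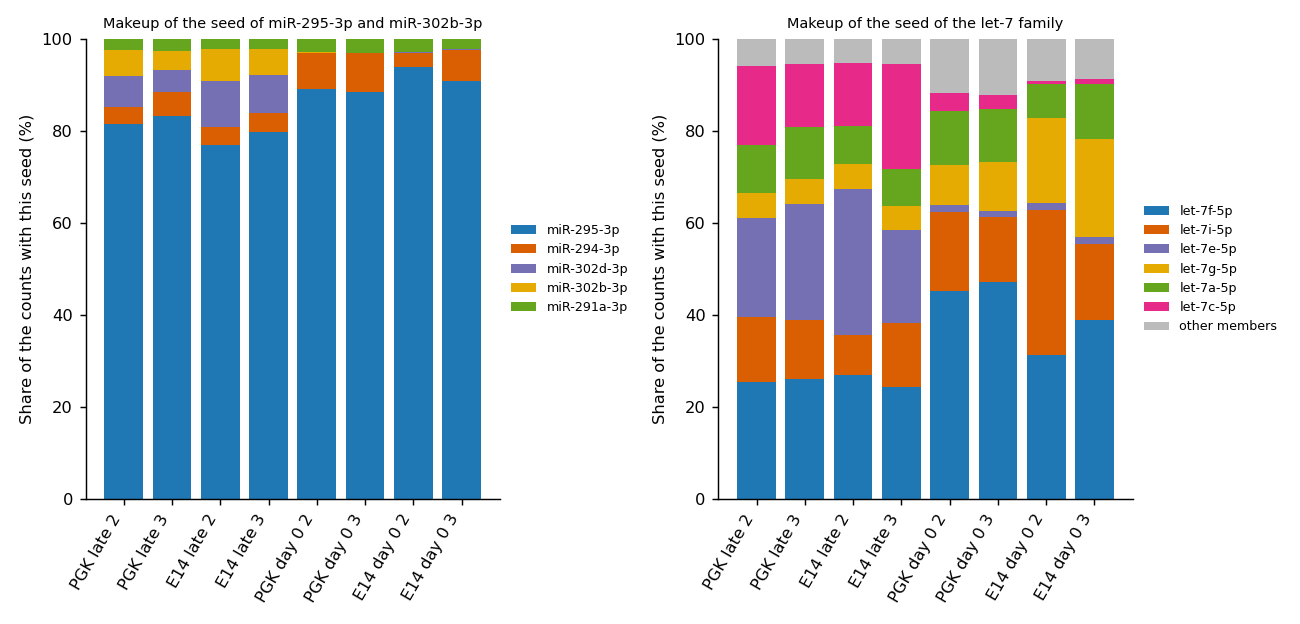
Stacked bars give each member's share, in percent, of the counts with the seed of miR-295-3p and miR-302b-3p (left) and with the let-7 seed (right), 1 bar for each of the 8 libraries. The purple and yellow miR-302d-3p and miR-302b-3p segments appear in the late bars on the left, and the purple let-7e-5p segment is larger in every late bar than in any day 0 bar on the right.

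The miR-99/100 and miR-125 families rose together. Of 11 listed arms 9 were tested and all 9 were higher, with a median log2 change of 3.26, and they took 3.03 to 4.69% of all counts in late and 0.406 to 0.812% in day 0 libraries. The level of miR-99b-5p was 24271 and 16991 CPM in late PGK and 27226 and 17160.5 CPM in late E14 libraries, against 3171 and 6956 CPM in PGK and 4872 and 3028 CPM in E14 day 0 libraries. miR-99b-5p changed by 2.26 ± 0.33 on the log2 scale (adjusted p = 0.000521). It made up 98.9 to 99.7% in late and 99.5 to 99.9% in day 0 libraries of the counts with its seed ACCCGUA, and the steeper rises of miR-100-5p (75.0 to 151.6 CPM in late and 3.93 to 33.6 CPM in day 0 libraries, log2 change 3.26 ± 0.65, adjusted p = 0.0029) and miR-99a-5p (5.04) added little to the sum. With the seed CCCUGAG, miR-125a-5p was 7649 to 8389.7 CPM in late and 1490.2 to 2592 CPM in day 0 libraries (log2 change 2.03 ± 0.24, adjusted p = 0.000154). Its relative miR-125b-5p was 349 and 366.6 CPM in late PGK and 107 and 454 CPM in late E14 libraries, against 12.8 and 13.5 CPM in PGK and 3.45 and 23.5 CPM in E14 day 0 libraries. miR-125b-5p changed by 4.57 ± 0.69 on the log2 scale (adjusted p = 0.000585). Late E14 replicate 2 had the lowest late level of miR-125b-5p and still lay above all day 0 libraries. Summed, the seed CCCUGAG rose by 1.63 (adjusted p = 0.00495). This sum also counts miR-351-5p, which carries the same seed. In day 0 libraries miR-351-5p stood at 4273 and 3464 CPM in PGK, above miR-125a-5p, and at 214 and 614 CPM in E14. The other arm of the chromosome 9 hairpin of miR-125b, miR-125b-1-3p, rose by 5.13.

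The largest rise among miRNAs with a mean of at least 50 CPM at either stage was that of miR-375-3p, best known from pancreatic islets. It stood at 4886 and 3260.3 CPM in late PGK and 1669 and 10008 CPM in late E14 libraries, against 5.59 and 12.9 CPM in PGK and 11.8 and 10.7 CPM in E14 day 0 libraries. miR-375-3p changed by 8.90 ± 0.72 on the log2 scale (adjusted p = 3.54e-05). Late levels differed widely among themselves, with E14 replicate 2 lowest and E14 replicate 3 highest, and all lay far above day 0. The deepest fall was that of miR-211-5p, the product of an intron of Trpm1, with 2 and 4 counts in late PGK and 1 and 7 counts in late E14 libraries, against 15286 and 19936 counts in PGK and 20524 and 38290 counts in E14 day 0 libraries (log2 change -12.69 ± 0.65, adjusted p = 5.61e-06). With so few late counts miR-211-5p could pass the filter on low counts only through its day 0 levels. Its call is therefore a description, and the size of its fold is uncertain. Its other arm, miR-211-3p, had 3, 0, 0 and 0 counts in the 4 late libraries and 434 to 2243 at day 0. The related miR-204-5p, with the same seed, was 5.60 to 61.7 CPM in late and 10.7 to 32.7 CPM in day 0 libraries and did not pass the test (log2 change 0.98 ± 0.72, adjusted p = 0.283). Summed, the seed UCCCUUU stood at 61.9 and 17.4 CPM in late PGK and 5.68 and 46.7 CPM in late E14 libraries, against 1511 and 2220.2 CPM in PGK and 1983 and 2842 CPM in E14 day 0 libraries. The sum changed by -6.04 ± 0.80 (adjusted p = 0.000413), and in late cells it was almost all miR-204-5p.

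Relatives encoded at different loci are given side by side. In the miR-181 family, which shares a seed, all 5 tested arms of miR-181a and miR-181b rose, while miR-181c and miR-181d of chromosome 8, in an intron of Nanos3, had 2 of 4 arms lower and 0 higher. The level of miR-181a-5p was 4427 and 5329 CPM in late PGK and 1929 and 5848 CPM in late E14 libraries, against 146 and 334 CPM in PGK and 199 and 819 CPM in E14 day 0 libraries. miR-181a-5p changed by 3.64 ± 0.63 on the log2 scale (adjusted p = 0.00135). Its relative miR-181c-5p was 3051 and 3939 CPM in late PGK and 2261 and 3280.5 CPM in late E14 libraries, against 12182 and 10819 CPM in PGK and 21408 and 15745 CPM in E14 day 0 libraries. miR-181c-5p changed by -2.23 ± 0.30 on the log2 scale (adjusted p = 0.000304). In all 4 day 0 libraries miR-181c-5p was the higher of the pair, and in 3 of the 4 late ones miR-181a-5p was. The change of miR-181d-5p (log2 change -1.05 ± 0.29, adjusted p = 0.0145) lost its call without PGK late replicate 2 (-0.94, adjusted p = 0.0519), without E14 late replicate 2 (-0.90, adjusted p = 0.0521) with library totals alone (-0.48) and in either line alone. The arm miR-181a-1-3p, which comes from the chromosome 1 hairpin, rose by 5.83, and miR-181b-5p rose by 3.94.

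In the miR-34 and miR-449 family, of which the miR-34 genes are known as targets of p53, 5 of 7 tested arms rose. All 4 arms of miR-34b and miR-34c on chromosome 9 rose. The level of miR-34c-5p was 3993 and 3795 CPM in late PGK and 1987 and 3161 CPM in late E14 libraries, against 284 and 398 CPM in PGK and 260.2 and 208 CPM in E14 day 0 libraries. miR-34c-5p changed by 3.49 ± 0.30 on the log2 scale (adjusted p = 4.01e-05). The late and day 0 groups were far apart in both lines. Its neighbour miR-34b-5p rose by 3.55, and miR-449a-5p, from an intron of Cdc20b, rose by 3.42 at 4.03 to 8.83 CPM in late cells. The levels of miR-34a-5p, from chromosome 4, were 69.7 to 262 CPM in late and 176 to 464 CPM in day 0 libraries and overlapped (log2 change -1.21 ± 0.47, adjusted p = 0.057). It was called lower with DESeq2 (adjusted p = 0.0245), all 20 libraries (0.0153), and without PGK late replicate 3 (-1.45, adjusted p = 0.0482) or PGK day 0 replicate 2 (-1.58, adjusted p = 0.0156). Its other arm miR-34a-3p fell (log2 change -1.51 ± 0.41, adjusted p = 0.0136), with no call by library totals (adjusted p = 0.0646) or in either line alone.

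In the epithelial miR-200 family the calls lay in 1 of 2 clusters. Both arms of miR-141 and the 3p arm of miR-200c, encoded together on chromosome 6, fell. The level of miR-141-3p was 14 and 6.92 CPM in late PGK and 8.81 and 5.96 CPM in late E14 libraries, against 116 and 288 CPM in PGK and 857 and 1485 CPM in E14 day 0 libraries. miR-141-3p changed by -5.79 ± 0.81 on the log2 scale (adjusted p = 0.000388). Day 0 levels were higher in E14 than in PGK, and late levels were low in both. With both lines 0 of the 5 tested arms of miR-200b, miR-200a and miR-429 on chromosome 4 passed the test in either direction, and miR-200b-3p was 1349 to 4377 CPM in late and 486 to 1702 CPM in day 0 libraries (log2 change 1.07 ± 0.51, adjusted p = 0.106). It was called higher with library totals alone (1.61, adjusted p = 0.0188), all 20 libraries (0.027), in PGK alone (1.82, adjusted p = 0.0414) and without E14 late replicate 3 (1.45, adjusted p = 0.0433).

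Of the paired clusters of miR-23, miR-27 and miR-24, the one on chromosome 13 had most of its arms lower. The chromosome 13 miR-27b-3p was 11452 and 10536 CPM in late PGK and 12604 and 13017 CPM in late E14 libraries, against 20560.1 and 32917 CPM in PGK and 47306 and 48568 CPM in E14 day 0 libraries. miR-27b-3p changed by -1.59 ± 0.22 on the log2 scale (adjusted p = 0.000376). In its cluster 3 of 5 arms were lower, miR-23b-3p among them (log2 change -1.76 ± 0.46, adjusted p = 0.0115). Without the libraries labelled ESCs-EpiSCs the change of miR-23b-3p was -0.72 and not called (adjusted p = 0.0721), nor was it in E14 alone (0.0605) or PGK alone (0.0793). The chromosome 8 miR-27a-3p, which has the same seed, was 828 to 1948 CPM in late and 549.8 to 1093 CPM in day 0 libraries (log2 change 0.73 ± 0.33, adjusted p = 0.0932), and in its cluster 1 of 4 arms was higher and 0 lower, against all 4 higher with library totals. It was itself called higher with library totals (1.28, adjusted p = 0.00858), a mean of at least 10 CPM (0.0473), all 20 libraries (0.02), PGK alone (1.16, adjusted p = 0.0484) and without the libraries labelled ESCs-EpiSCs (1.11, adjusted p = 0.0401). Without PGK day 0 replicate 2, 5 arms of the 2 clusters were lower. The arm that rose was miR-24-2-5p (220.2 to 449.2 CPM in late and 69.6 to 196 CPM in day 0 libraries, log2 change 1.43 ± 0.31, adjusted p = 0.00424). In the miR-26 family miR-26a-5p was 7808 to 13009 CPM in late and 22916 to 44289.6 CPM in day 0 libraries (log2 change -1.84 ± 0.20, adjusted p = 9.43e-05). Its relative miR-26b-5p was 1718 to 1881 CPM in late and 1058 to 2052 CPM in day 0 libraries (log2 change 0.07 ± 0.28, adjusted p = 0.867). The summed seeds of both families fell, UCACAGU (miR-27) by 1.47 and UCAAGUA (miR-26) by 1.65 on the log2 scale.

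The miR-17-92 cluster and its relatives, which promote proliferation, had 7 of 28 tested arms higher and 3 lower, with a median of 0.47. Over all miRNAs 25.3% were higher, so the 7 are near that share, and the split moved with the scaling, to 18 higher and 1 lower with library totals. All 3 that fell belong to miR-106b-25, inside Mcm7 on chromosome 5, where 0 of 6 were higher. The level of miR-93-5p was 2372 and 2593 CPM in late PGK and 3221 and 3976 CPM in late E14 libraries, against 5607 and 10723 CPM in PGK and 18406 and 21724 CPM in E14 day 0 libraries. miR-93-5p changed by -2.10 ± 0.29 on the log2 scale (adjusted p = 0.00037). The others were miR-25-3p (log2 change -1.01 ± 0.24, adjusted p = 0.00636) and miR-106b-3p (log2 change -1.18 ± 0.27, adjusted p = 0.00597). The calls of miR-25-3p and miR-106b-3p ended with library totals alone, at -0.45 (adjusted p = 0.104) and -0.62 (adjusted p = 0.0684). All 7 that rose lie in miR-17-92 on chromosome 14 (4 of 10 arms) or miR-106a-363 on the X chromosome (3 of 10), with miR-18a-5p at 507 to 627 CPM in late and 184 to 406 CPM in day 0 libraries (log2 change 1.02 ± 0.29, adjusted p = 0.0153). With PGK late replicate 2, PGK late replicate 3, E14 late replicate 3, PGK day 0 replicate 3 or the libraries labelled ESCs-EpiSCs left out, and also with the replicate block or no line term, 4 arms were higher, and 12 were in PGK alone and 1 in E14 alone. The shared product miR-92a-3p, the most abundant miRNA of late cells, stood at 86925 and 84013 CPM in late PGK and 91924 and 91776 CPM in late E14 libraries, against 79014 and 42539 CPM in PGK and 83903 and 65017 CPM in E14 day 0 libraries. All late libraries lay above all day 0 libraries, but it did not pass the test (log2 change 0.40 ± 0.20, adjusted p = 0.127), except without PGK day 0 replicate 2 (0.57, adjusted p = 0.0432) and with library totals.

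**Figure D3:**
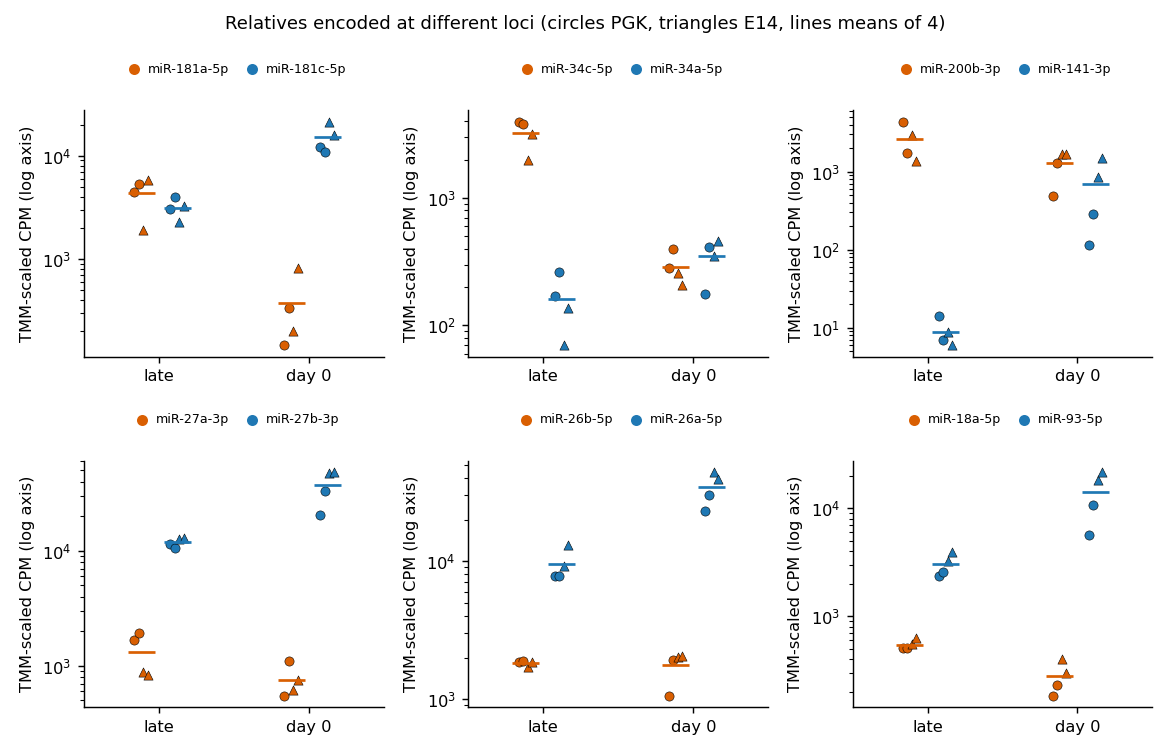
Each panel plots TMM-scaled CPM (vertical log axis) of 2 related miRNAs in late (left) and day 0 (right) libraries, with circles for PGK, triangles for E14 and lines for the means of 4 libraries. In the first panel miR-181a-5p is higher in every late than in any day 0 library and miR-181c-5p is lower, and in the third miR-141-3p falls to 5.96 to 14 CPM while miR-200b-3p overlaps between the stages.

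Imprinted miRNAs rose in part. Of 104 listed arms from the maternally expressed Dlk1-Dio3 region of chromosome 12, 95 were tested, of which 49 rose and 0 fell, with a median log2 change of 0.97. Among those not called, miR-299a-5p changed by -1.76 (adjusted p = 0.085), while miR-299a-3p rose by 1.52. DESeq2 called miR-299a-5p lower (adjusted p = 0.0281). It was also called lower without the libraries labelled ESCs-EpiSCs (-2.59), PGK day 0 replicate 3 (-2.12) or E14 day 0 replicate 3 (-2.15). The region took 17.5 to 28.6% of all counts in late and 8.25 to 11.9% in day 0 libraries. With library totals alone 82 rose, with the experiment as a replicate block 37, without PGK late replicate 2 29, in PGK alone 52 and in E14 alone 8. Of its most abundant arms, miR-127-3p was not called, at 69766 and 54207 CPM in late PGK and 34013 and 30816 CPM in late E14 libraries, against 43922 and 29703 CPM in PGK and 46997 and 33142 CPM in E14 day 0 libraries. miR-127-3p changed by 0.22 ± 0.27 on the log2 scale (adjusted p = 0.507). Nor was miR-541-5p (log2 change 0.52 ± 0.38, adjusted p = 0.277), except with library totals and without E14 day 0 replicate 2 (0.96, adjusted p = 0.0227). The rise of miR-434-3p (log2 change 0.68 ± 0.21, adjusted p = 0.0238) was not called with the replicate block (adjusted p = 0.0523) or without any 1 of the 4 PGK libraries (adjusted p = 0.0506 to 0.0713). For miR-127-3p late PGK libraries were highest and late E14 libraries lay within the day 0 range. At the Dio3 end of the region, miR-1247-5p, in an exon of Dio3os and not in the list, fell to 0.738 to 3.95 CPM in late cells, against 41.0 to 179 CPM at day 0 (log2 change -5.80 ± 0.80, adjusted p = 0.00037).

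Both arms of miR-335, which lies in an intron of the imprinted gene Mest and was singled out after its values were seen, rose. The level of miR-335-3p was 8047 and 7013 CPM in late PGK and 4138 and 1795 CPM in late E14 libraries, against 871 and 1549.6 CPM in PGK and 345 and 786 CPM in E14 day 0 libraries. miR-335-3p changed by 2.51 ± 0.40 on the log2 scale (adjusted p = 0.000811). The other arm was 1324 to 3961 CPM in late and 104 to 608 CPM in day 0 libraries (log2 change 2.83 ± 0.69, adjusted p = 0.00815). For miR-335-3p late PGK levels were above late E14 levels, and all late levels above all day 0 levels, and in E14 alone neither arm was called. The imprinted miRNAs of the Gnas locus had 0 of 4 arms called in either direction (3 higher with library totals), among them the abundant miR-298-5p (23954 to 37224 CPM in late and 24352 to 48008 CPM in day 0 libraries, log2 change -0.13 ± 0.18, adjusted p = 0.571). The rodent families of an Sfmbt2 intron had 53 of 77 arms tested, of which 15 fell and 0 rose, with a median of -0.65, a share near the 26.4% of all miRNAs that were lower. That count was 5 with library totals alone, 1 in PGK alone, 3 in E14 alone, 4 without the libraries labelled ESCs-EpiSCs, and 6, 6, 7 and 8 without PGK late replicate 2, E14 late replicate 3, E14 late replicate 2 and E14 day 0 replicate 2. Many of these arms share near-identical sequences, so their counts are uncertain.

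Of the 12 largest falls 10 were testis-type miRNAs of the X chromosome, which were abundant in naive PGK cells. Of 28 listed arms 12 passed the filter on low counts and were lower, and since they could pass only through their day 0 levels, the count is a description. With no such filter all 28 were lower. The level of miR-871-3p, the most abundant, was 4.81 and 3.97 CPM in late PGK and 2.06 and 1.16 CPM in late E14 libraries, against 18138 and 25973 CPM in PGK and 142.4 and 14.7 CPM in E14 day 0 libraries. miR-871-3p changed by -9.03 ± 1.83 on the log2 scale (adjusted p = 0.0032). Late levels were near 0 in both lines, day 0 PGK levels were far the highest, and day 0 E14 levels lay between, higher in replicate 2 than in replicate 3. The same order held for miR-470-5p, at 4.03 and 3.23 CPM in late PGK and 0.988 and 0.155 CPM in late E14 libraries, against 12843 and 11108 CPM in PGK and 109 and 7.63 CPM in E14 day 0 libraries. It held as well for miR-465c-5p, which shares near-identical sequences with other miR-465 names, at 2.13 and 3.60 CPM in late PGK and 0.988 and 0.542 CPM in late E14 libraries, against 12466 and 13209.8 CPM in PGK and 73.9 and 6.90 CPM in E14 day 0 libraries. All 28 arms fell in PGK alone and 7 in E14 alone. Further large falls of this kind were miR-743b-3p (-10.79), miR-878-5p (-10.26), miR-881-3p (-10.15), miR-465a-3p (-10.06), miR-465b-5p (-9.74), miR-871-5p (-9.59), miR-465b-3p (-9.42) and miR-465c-3p (-9.42). Late levels of miR-465a-3p (0.155 to 0.462 CPM), miR-465b-5p (0.31 to 0.56 CPM) and miR-871-5p (0.277 to 0.672 CPM) were near the limit of a count of 0, so these folds are uncertain. The values average unlike lines, with miR-465b-5p at -13.12 in PGK alone and -5.33 in E14 alone. In E14 alone miR-743b-3p, miR-878-5p, miR-465a-3p and miR-871-5p were not called. In late cells miR-465b-3p and miR-465c-3p had the same levels in all 4 libraries. Summed, the listed arms took 0.000511 to 0.00217% of all counts in late and 0.00458 to 7.98% in day 0 libraries.

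Further miRNAs next in size of change were picked after their values were seen, because the largest falls were mostly of 1 kind. The X-linked miR-672-5p was 87.9 and 84.1 CPM in late PGK and 35.2 and 115 CPM in late E14 libraries, against 3716 and 3070.1 CPM in PGK and 1376 and 967 CPM in E14 day 0 libraries. miR-672-5p changed by -4.63 ± 0.51 on the log2 scale (adjusted p = 0.000116). Among rises, miR-3099-3p in an intron of Usp29 was 49.0 to 104 CPM in late and 1.22 to 6.09 CPM in day 0 libraries (log2 change 4.56 ± 0.57, adjusted p = 0.00022). Next, miR-674-3p was 323 to 468 CPM in late and 41.7 to 92.2 CPM in day 0 libraries (log2 change 2.63 ± 0.33, adjusted p = 0.00024). In turn miR-203-3p, known from skin, was 46.6 to 66.5 CPM in late and 3.53 to 14.8 CPM in day 0 libraries (log2 change 2.45 ± 0.46, adjusted p = 0.00211). Then miR-149-5p, in an intron of Gpc1, was 1156 to 1493 CPM in late and 98.3 to 687 CPM in day 0 libraries (log2 change 2.28 ± 0.49, adjusted p = 0.00438). In these 4 every late library lay above every day 0 library. Among other abundant seeds, that of miR-21a-5p (7786 to 14514 CPM in late and 2299.7 to 2682 CPM in day 0 libraries) rose by 2.07 and that of miR-182-5p (53135 to 69606 CPM in late and 101344 to 195684 CPM in day 0 libraries) fell by 1.14 on the log2 scale. In the miR-183 cluster 2 of 6 arms fell, miR-182-5p and miR-183-5p, beside 26.4% of all miRNAs. The arm miR-183-5p was not called with library totals (adjusted p = 0.0885) or in E14 alone (0.102). The cell-cycle family of miR-15 and miR-16 had 4 of 14 tested arms lower, near the 26.4% of all miRNAs, led by miR-16-5p (10339 to 13026 CPM in late and 19937 to 32549 CPM in day 0 libraries, log2 change -1.27 ± 0.21, adjusted p = 0.000975) and miR-15a-5p (-1.59). Its 1 higher arm, miR-322-3p (log2 change 1.65 ± 0.60, adjusted p = 0.0438), was not called with the replicate block, RLE scaling, no filter or no line term, in PGK alone, or without the libraries labelled ESCs-EpiSCs or any 1 of E14 late replicates 2 and 3, PGK day 0 replicate 3 and E14 day 0 replicates 2 and 3. In the miR-30 family 8 of 11 tested arms fell, but 0 did with library totals alone or in E14 alone, 2 in PGK alone, 4 with the replicate block, and 2, 2, 3 and 4 without E14 late replicate 2, E14 late replicate 3, PGK late replicate 2 and PGK late replicate 3.

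The 5 most abundant miRNAs that did not pass the test were miR-92a-3p, miR-127-3p, miR-298-5p, miR-22-3p and miR-541-5p. Their intervals of 2 SE around the log2 change were -0.01 to 0.80, -0.31 to 0.75, -0.49 to 0.23, -0.63 to 0.12 and -0.24 to 1.27 in that order. With library totals alone miR-92a-3p (0.96), miR-127-3p (0.78) and miR-541-5p (1.09) were called higher, and the signs of miR-298-5p and miR-22-3p turned. Among the 10 most abundant of either stage, miR-99b-5p, miR-541-5p, miR-434-3p and miR-411-5p were in the late list alone, and miR-16-5p, miR-26a-5p, miR-27b-3p and miR-292-5p in the day 0 list alone.

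Markers of other cell types were present at low to middle levels at both stages, and their part in the results above was not tested. Over all miRNAs 25.3% were higher and 26.4% lower. Of the neural list 21 of 28 arms were tested, with 9 higher and 2 lower, and 1 lower without any 1 of the 4 late libraries or E14 day 0 replicate 3. Changes of the 21 tested arms ran from -2.50 to 3.01 on the log2 scale, with a median of 0.39. Among the 9 higher were miR-132-3p (73.0 to 113 CPM in late and 9.98 to 17.9 CPM in day 0 libraries, 2.71), miR-212-3p (2.68), miR-153-3p (2.27) and miR-9-5p (log2 change 1.38 ± 0.45, adjusted p = 0.0291). The level of miR-9-5p was 342 and 272 CPM in late PGK and 479 and 1134 CPM in late E14 libraries, against 234 and 144 CPM in PGK and 248 and 141 CPM in E14 day 0 libraries. It was highest in late E14 replicate 3, and lost its call without that library (0.98, adjusted p = 0.0666), without PGK late replicate 2 or PGK day 0 replicate 3 (adjusted p = 0.055 and 0.096), without E14 day 0 replicate 2 or 3 (0.076 and 0.0674), with the replicate block (0.0614), and without the libraries labelled ESCs-EpiSCs (1.04, adjusted p = 0.152). The defining neuronal miR-124-3p was 7.41 to 24.7 CPM in late and 21.7 to 78.5 CPM in day 0 libraries and did not pass (log2 change -1.31 ± 0.52, adjusted p = 0.0581). It was called lower with DESeq2 (adjusted p = 0.0241), no line term (0.0328), all 20 libraries (0.0181) and without PGK day 0 replicate 3 (-1.62, adjusted p = 0.0406). The neural list took 0.205 to 0.415% of all counts in late and 0.126 to 0.187% in day 0 libraries.

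Of the mesenchymal list 11 of 12 arms were tested, with 7 higher and 1 lower. The level of miR-21a-5p was 13004 and 14513 CPM in late PGK and 7785 and 8678 CPM in late E14 libraries, against 2299.7 and 2640.2 CPM in PGK and 2682 and 2541 CPM in E14 day 0 libraries. miR-21a-5p changed by 2.07 ± 0.25 on the log2 scale (adjusted p = 0.000188). At day 0 miR-214-3p had 0 counts in all 4 libraries, and in late cells it had 31.0 and 19.8 CPM in PGK and 4.94 and 46.6 CPM in E14 (adjusted p = 0.000886). It could pass the filter on low counts only through its late levels, so its call is a description. The fall in the list was miR-143-3p (1096 to 2398 CPM in late and 2901 to 8872 CPM in day 0 libraries, log2 change -1.73 ± 0.44, adjusted p = 0.00975), and without E14 late replicate 3 or the libraries labelled ESCs-EpiSCs 2 arms were lower. The change of miR-199a-3p (log2 change 2.35 ± 0.87, adjusted p = 0.0478) was not called with the replicate block (2.22, adjusted p = 0.0708), no line term (0.0895), without the libraries labelled ESCs-EpiSCs (0.0576), in E14 alone (0.81, adjusted p = 0.567), or without any 1 of PGK late replicates 2 and 3, E14 late replicate 3, PGK day 0 replicates 2 and 3 and E14 day 0 replicate 2 (adjusted p = 0.0838 to 0.163). The list took 1.22 to 2.09% of all counts in late and 0.529 to 0.934% in day 0 libraries.

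Among muscle markers 4 of 14 arms were tested. Here miR-208b-3p, in an intron of Myh7, was 24.4 to 56.5 CPM in late and 1.32 to 7.98 CPM in day 0 libraries (log2 change 3.41 ± 0.54, adjusted p = 0.00082), and miR-133a-3p rose by 2.96. By contrast Myh7b hosts miR-499-5p, which fell (2.14 to 3.81 CPM in late and 85.2 to 187 CPM in day 0 libraries, log2 change -5.56 ± 0.42, adjusted p = 2.89e-05), as did its other arm. The 3 tested endoderm arms all fell, with miR-192-5p at 419.6 to 599.6 CPM in late and 1048 to 3505 CPM in day 0 libraries (log2 change -2.0 ± 0.40, adjusted p = 0.00297) and miR-194-5p at -2.01. In the blood and endothelial list 8 of 14 arms were tested, with 1 higher and 4 lower. The 1 higher was not called with no filter, the replicate block, all 20 libraries or either line alone, or without any 1 of PGK late replicate 2, E14 late replicates 2 and 3, PGK day 0 replicates 2 and 3 and E14 day 0 replicate 2. The level of miR-142-5p was 17.9 and 15.6 CPM in late PGK and 7.99 and 4.88 CPM in late E14 libraries, against 605 and 455 CPM in PGK and 150.2 and 74.2 CPM in E14 day 0 libraries. miR-142-5p changed by -4.56 ± 0.42 on the log2 scale (adjusted p = 4.38e-05). It fell with miR-150-5p (14.2 to 37.0 CPM in late and 231 to 1491 CPM in day 0 libraries, log2 change -4.95 ± 0.63, adjusted p = 0.000255). These lists took 0.00557 to 0.0106% of all counts in late and 0.00788 to 0.0172% in day 0 libraries (muscle), 0.0529 to 0.0781% of all counts in late and 0.0994 to 0.294% in day 0 libraries (endoderm) and 0.0532 to 0.0855% of all counts in late and 0.106 to 0.189% in day 0 libraries (blood and endothelial).

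Among the miRNAs of the Hox clusters, late E14 replicate 3 stood apart. The level of miR-10b-5p was 395 and 437 CPM in late PGK and 463 and 13454 CPM in late E14 libraries, against 1845 and 1184 CPM in PGK and 864 and 2555 CPM in E14 day 0 libraries. miR-10b-5p changed by 0.08 ± 1.22 on the log2 scale (adjusted p = 0.966). Without that library it was called lower (-1.84, adjusted p = 0.0119), as it was in PGK alone (-1.85, adjusted p = 0.00622). Likewise miR-10a-5p was 39.2 and 135 CPM in late PGK and 47.6 and 2716 CPM in late E14 libraries, against 71.3 and 104 CPM in PGK and 20.8 and 56.7 CPM in E14 day 0 libraries. Of 7 tested arms of the list 2 were lower and 0 higher, and without that library 5 were lower. The arm miR-10a-5p was called higher with all 20 libraries (2.57, adjusted p = 0.0247) and with no line term (3.54, adjusted p = 0.0439). The 2 lower are near the 26.4% of all miRNAs that were lower. Called lower were miR-196a-1-3p (0.112 to 2.31 CPM in late and 47.5 to 70.1 CPM in day 0 libraries, log2 change -5.94 ± 0.74, adjusted p = 0.00022) and miR-196a-5p. As miR-196a-1-3p could pass the filter on low counts only through its day 0 levels, its call is a description. The level of miR-196a-5p was 6.38 and 18.8 CPM in late PGK and 9.22 and 289 CPM in late E14 libraries, against 1072 and 933 CPM in PGK and 898 and 752 CPM in E14 day 0 libraries. miR-196a-5p changed by -4.37 ± 1.26 on the log2 scale (adjusted p = 0.0167). In E14 alone its change was -2.37 and not called (adjusted p = 0.268). It had no call when PGK late replicate 2 (-3.52, adjusted p = 0.0541) or PGK late replicate 3 (-3.79, adjusted p = 0.0688) was left out.

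Most called changes had the same sign in both lines when each was tested on its own libraries, of which they share none. In PGK alone 332 of 735 miRNAs were called (45.2%) and in E14 alone 187 of 739 (25.3%). Called in both and in the same direction were 141, which is 42.5% of the PGK calls and 75.4% of the E14 calls, and 1 was called in opposite directions, the X-linked miR-503-5p at -2.31 in PGK and 2.73 in E14. Of the 306 PGK calls that could be fitted in E14, 287 had the same sign there, and of the 178 E14 calls that could be fitted in PGK, 171 did.

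A test of the difference between the lines called 0 of 712 miRNAs by edgeR (0%, lowest adjusted p = 0.135), with 90 at an unadjusted p under 0.05 (12.6%). DESeq2 called 31, with 1 change more positive in PGK and 30 more negative. The 12 tested testis-type arms were among the 30, with miR-871-3p at -6.69 ± 1.31, adjusted p = 0.135 by edgeR. The X-linked cluster of miR-322, miR-503 and miR-351 was also among them. For miR-351-5p, which carries the miR-125 seed (mature sequence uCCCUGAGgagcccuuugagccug), the level was 2376 and 2506 CPM in late PGK and 3043 and 3207 CPM in late E14 libraries, against 4273 and 3464 CPM in PGK and 214 and 614 CPM in E14 day 0 libraries. The difference was -3.58 ± 0.68, adjusted p = 0.135 by edgeR, and had an adjusted p of 0.000245 by DESeq2. Its neighbour miR-322-5p was 943 and 1051 CPM in late PGK and 947 and 1331 CPM in late E14 libraries, against 1028 and 988 CPM in PGK and 151 and 237 CPM in E14 day 0 libraries. In both, the 2 day 0 E14 libraries were lowest. The 1 change more positive in PGK was that of miR-141-3p, where the edgeR value was 3.04 ± 0.83, adjusted p = 0.188. Without E14 day 0 replicate 3 edgeR called 15, without E14 day 0 replicate 2 14 and without E14 late replicate 2 9, all more negative in PGK, with the replicate block 8, and with all 20 libraries 3.

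**Figure D4:**
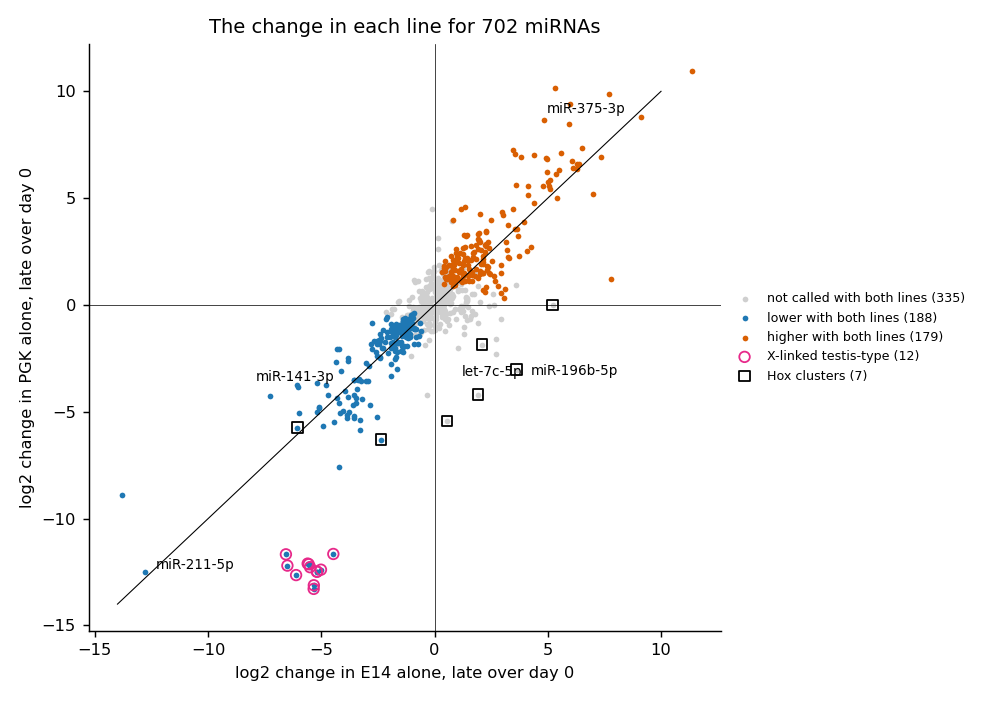
The log2 change of late over day 0 in PGK alone (vertical axis) is plotted against that in E14 alone (horizontal axis) for 702 miRNAs, coloured by the call with both lines. Most points follow the line of equal change, the 12 testis-type miRNAs lie far below it, and the Hox cluster miRNAs miR-196b-5p and others lie at lower right.

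Where both arms of a hairpin passed the test, they moved the same way. Of 155 hairpins with both arms at a mean of at least 10 CPM, 61 had both arms called by edgeR, all 61 in the same direction. The 5p arm of miR-299a, not called by edgeR, was called lower by DESeq2 (-1.76, adjusted p = 0.0281). Its 3p arm was called higher by edgeR (1.52, adjusted p = 0.0267). The log2 ratio of 5p over 3p counts was called higher in late cells for 7 hairpins (4.52%) and lower for 5 (3.23%), together 7.74%, by limma. These counts moved with single libraries, to 1 and 2 without E14 day 0 replicate 2, 2 and 2 without E14 late replicate 3, 2 and 3 without E14 late replicate 2, 2 and 4 without PGK late replicate 2, 4 higher without PGK late replicate 3, and 14 and 11 without PGK day 0 replicate 2. The ratio changed most for miR-199b, whose 3p arm has the same sequence as miR-199a-3p, so that this ratio is uncertain (log2 change 3.02 ± 0.70, adjusted p = 0.0395). Its call ended without any 1 of PGK late replicates 2 and 3, E14 late replicate 2, PGK day 0 replicate 3 and E14 day 0 replicate 2. The same happened with a pseudocount of 5 (2.20, adjusted p = 0.0699) and with no filter on low counts (adjusted p = 0.0539). Next came miR-299a of the Dlk1-Dio3 region, whose arms are shown with their seeds in capitals because its dominant arm differed between the stages (5p at chr12:109710644-109710665 and 3p at chr12:109710676-109710697, plus strand, intergenic).
miR-299a-5p: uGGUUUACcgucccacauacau
miR-299a-3p: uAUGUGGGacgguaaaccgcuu
Its log2 ratio was -2.86 and -2.06 in late PGK and -3.0 and -3.28 in late E14 libraries, against 1.49 and 0.08 in PGK and -0.05 and -1.15 in E14 day 0 libraries (log2 change -2.89 ± 0.41, adjusted p = 0.00867). Late libraries held more 3p than 5p in every case, and day 0 libraries were mixed. The miR-299b hairpin, on the other strand of the same site, gives nearly the same sequences, so reads of both cannot be told apart by these names.

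For miR-93 the ratio was 4.48 and 4.96 in late PGK and 4.84 and 5.38 in late E14 libraries, against 5.73 and 7.04 in PGK and 7.67 and 8.07 in E14 day 0 libraries (log2 change -2.22 ± 0.38, adjusted p = 0.0119). Its 5p arm fell while miR-93-3p was 83.5 to 113 CPM in late and 80.6 to 105 CPM in day 0 libraries (log2 change 0.16 ± 0.27, adjusted p = 0.659). Without E14 late replicate 3 and without E14 day 0 replicate 2 the ratio of miR-93 had adjusted p-values of 0.0565 and 0.0537. The ratio of miR-32 fell (log2 change -1.91 ± 0.27, adjusted p = 0.00867). The hypoxia-induced miR-210 had more 5p in late cells (log2 change 1.75 ± 0.35, adjusted p = 0.0261), with 4 leave-one-out fits above the threshold (adjusted p = 0.0672 to 0.0795). The ratio of the testis-type miR-741 rests on arms that were both near 0 in late cells (2.17) and was not called without E14 day 0 replicate 2 (adjusted p = 0.0537). The dominant arm differed between the stages in 8 hairpins, of which miR-299a and miR-362 had a called ratio.

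**Figure D5:**
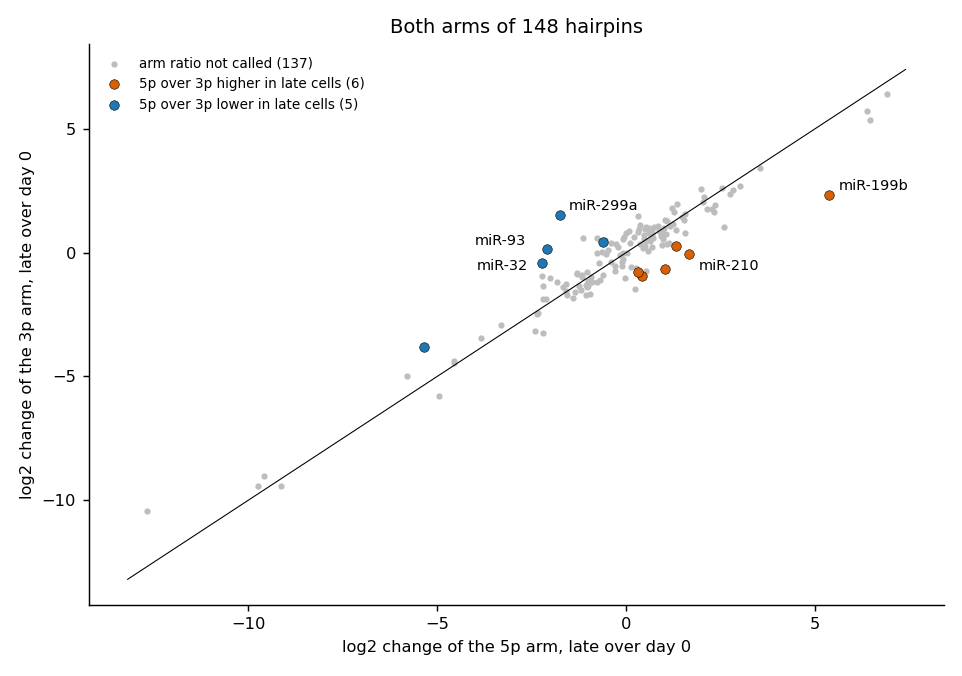
The log2 change of late over day 0 of the 3p arm (vertical axis) is plotted against that of the 5p arm (horizontal axis) for the 148 hairpins with both arms tested, 1 point each. Most points lie near the line of equal change, and the labelled hairpins with a called arm ratio lie off it.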

How the data were processed

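Small RNA libraries of 20 samples were deposited as 1 table for each line, and the 4 late and 4 day 0 libraries were used here. The authors deposited raw counts per mature miRNA. CASAVA 1.8.2, DESeq2, GRCm38 and mm10 are named per the submitters' processing notes, while for the aligner and the miRNA annotation the sources used here give no name. The 2 tables hold 1091 miRNAs for E14 and 1109 for PGK, of which 1063 are in both. The 28 only in the E14 table had at most 3 counts over its 4 libraries and the 46 only in the PGK table at most 295.

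From these counts, edgeR 4.0.16 (R 4.3.3) fitted line and stage after filtering by expression within stage and TMM scaling, with 5 residual degrees of freedom, quasi-likelihood tests and an adjusted p under 0.05. A line by stage term gave the difference between lines, PGK minus E14. Seed sums used RefSeq mature sequences (GRCm38.p6), matched by name for 853 of 1063 miRNAs and 91.6% of counts, and positions and genes come from that table and the GENCODE annotation of the same build. Arm ratios were log2((5p count + 0.5)/(3p count + 0.5)) in limma 3.58.1, for hairpins with each arm at a mean of at least 10 CPM. DESeq2 1.42.0 was an alternative, as were other scalings and filters, each line alone, all 20 libraries and each library left out. Scripts were tested on simulated data.

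Groups follow the labels for line and day. Replicate numbers are the experiment names, which the late and day 0 libraries of a line share. Same-numbered deviations across miRNAs had a correlation of 0.067 in PGK and 0.087 in E14, and the fit with the experiment as a replicate block within line is an alternative to the one above. Rows with identical counts in all 8 libraries and at least 100 counts formed 4 groups of names.

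The miRNAs named were the 12 largest called rises and falls with a mean of at least 50 CPM at either stage and no overlap of the groups, the 10 most abundant of each stage, the 5 most abundant not called, and members of the lists. Members and lists were chosen with earlier results of these data known. The paralogous clusters compared by locus, miR-335 and the further rises and falls were chosen after their values were seen.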

Additional observations from a re-analysis of the deposited data

Results flagged for a closer look

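Single libraries stood apart from the other 3 of their stage in 14 of 199 groups of 4 searched, judged by the gap to the nearest library against the whole range. Chance alone gives about 1 in 20 for 4 values drawn alike. Each group here mixes 2 libraries of each line, so that rate need not hold and the 14 are a description. Of these, 6 were late E14 replicate 3, which was highest in the Hox cluster miRNAs miR-10a-5p (2716 CPM), miR-10b-5p (13454 CPM), miR-196a-5p (289 CPM) and miR-196b-5p (242 CPM) and also in miR-16-5p (13026 CPM) and miR-674-5p (85.4 CPM). Late E14 replicate 2 stood apart in let-7i-5p, at 126 CPM. Among day 0 libraries, E14 replicate 3 stood apart in let-7i-5p (3201 CPM) and miR-302b-3p (180.3 CPM), PGK replicate 3 in miR-100-5p (33.6 CPM) and miR-291a-3p (6734 CPM), and PGK replicate 2 in miR-196b-5p (173 CPM), miR-26b-5p (1058 CPM) and miR-299a-5p (925 CPM). The part of any 1 library in the results was tested by leaving it out.

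For 5 miRNAs among those named here every PGK library moved one way and every E14 library the other. Over all 712 miRNAs tested this held for 17, of which 10 were at 50 CPM or more. The difference, PGK minus E14 on the log2 scale, was 1.05 for the endothelial miR-126-3p (edgeR adjusted p = 0.512), 1.64 for miR-363-3p of the X-linked miR-106a-363 cluster (adjusted p = 0.188), -6.58 for miR-196b-5p of the Hox A cluster (adjusted p = 0.188), -3.58 for miR-351-5p and -4.98 for miR-503-5p, neighbours on the X chromosome (adjusted p = 0.135 each). None of the 5 passed that test with edgeR, and DESeq2 called miR-196b-5p, miR-351-5p and miR-503-5p.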

How the results depend on the processing

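Counts of called miRNAs were 180 higher and 188 lower. With library totals 275 were higher, in E14 alone 90 were higher and 97 lower, and with one library left out 144 to 183 were higher and 156 to 189 lower. The other settings (another scaling, filter or tool, no line term, PGK alone, all 20 libraries, without the libraries labelled ESCs-EpiSCs) stayed within 1.5 times of both. With the replicate block 153 were higher and 170 lower, and 320 of these 323 are among the 368 called without it. Seed groups had 214 higher with library totals and 56 higher and 61 lower in E14 alone, and 107 to 140 higher and 91 to 111 lower with one library left out. Arm ratios had 9 lower with a pseudocount of 5, 4 higher and 2 lower at 50 CPM, 4 higher and 16 lower with no filter, and 1 to 14 higher and 2 to 11 lower with one library left out. The difference between lines called 0 miRNAs more positive in PGK and 0 more negative, and more negative were 3 with no filter, 8 with the replicate block, 3 with all 20 libraries and 0 to 15 with one library left out, while DESeq2 called 1 more positive and 30 more negative. E14 alone and single left-out libraries have fewer samples, and the cause of the other shifts was not tested.

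Signs that turned are given on the log2 scale. With library totals they were let-7c-5p at 0.018, miR-22-3p and its seed AGCUGCC at 0.30, and miR-298-5p and its seed GCAGAGG at 0.43. The miR-30 seed GUAAACA (-0.48), in which miR-30b-5p and miR-30d-5p were not counted, also turned, to 0.084. This sum was not called with DESeq2, either other filter, the replicate block (adjusted p = 0.109), no line term, either line alone or 7 of the 8 libraries left out singly. In E14 alone they were let-7c-5p at 1.02, miR-126-3p at -0.24, miR-127-3p and its seed CGGAUCC at -0.24, miR-26b-5p at -0.12, miR-298-5p and its seed GCAGAGG at 0.16 and miR-363-3p at -0.37, and in PGK alone miR-10a-5p at -0.0062, miR-322-5p at -0.0018, miR-351-5p at -0.65, miR-10b-5p at -1.85, miR-503-5p at -2.31 and miR-196b-5p at -3.03, of which the last 3 were called there. For miR-10b-5p the change was also -0.71 with the replicate block, -0.43 without the libraries labelled ESCs-EpiSCs and -1.84 to 0.85 with one library left out. For miR-196b-5p these values were -0.12, -1.87 and -1.57 to 2.05. For miR-503-5p the change was -0.72 with no line term, -0.49 without those libraries and -0.98 to 1.19 with one library left out. With one library left out miR-26b-5p lay at -0.13 to 0.17, miR-127-3p and CGGAUCC at -0.053 to 0.42 and the miR-92a seed AUUGCAC at -0.012 to 0.39. Depth limits miRNAs near 0 counts in late cells, such as miR-211-3p, whose fold cannot be given. Of 95 miRNAs followed through every setting and called with both lines, 25 were not called in E14 alone and 7 in PGK alone.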
